A study of Homo sapiens with 12 samples.

Results

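The 9 genes described here encode the enzymes of serine synthesis and of the folate cycle that takes up the carbon of serine: PHGDH, PSAT1, PSPH, SHMT1, SHMT2, MTHFD1, MTHFD1L, MTHFD2 and ALDH1L2. They were chosen by name and function from 25718 genes in the files, with earlier results of these data known, and all 9 were listed there. The samples came from H9, a human embryonic stem cell line, transduced at a multiplicity of infection of 50 with a lentiviral vector that carries miR-10a or miR-10b with GFP under doxycycline control. All cells were patterned towards ventral midbrain with CT99021, an activator of WNT signalling, and SHH (200 ng/ml) and harvested on day 14. Doxycycline was present from day 11 to day 14 in 3 miR-10a and 3 miR-10b cultures (miR-10a dox, miR-10b dox). The controls were 3 cultures of each vector that carried the same vector and were left without doxycycline (miR-10a control, miR-10b control). Doxycycline-treated cells without a miR-10 vector were not analysed here, so an effect of doxycycline itself and one of the microRNA cannot be told apart. Nothing in the sources used here says that the 3 samples of a group came from separate differentiations, so p-values measure the spread between these samples, which may be technical.

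Serine is made from a glycolytic intermediate by PHGDH, which takes the first and committed step, PSAT1, which transfers an amino group, and PSPH, which removes the phosphate. SHMT1 in the cytosol and SHMT2 in mitochondria pass a carbon unit from serine to tetrahydrofolate and release glycine, and the MTHFD enzymes and ALDH1L2 interconvert the folate-bound units that feed purine, thymidylate and methionine synthesis. Dividing cells depend on this supply for DNA synthesis, and PHGDH is a known marker of neural stem cells and radial glia.

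Total counts were 10545487 to 14165426 per sample, and in both vectors every control had a larger total than every dox sample. With 3 counts taken as the floor, a gene below 0.212 to 0.284 CPM (the counts-per-million scale, which divides by the total count of the sample) was not detectable. These limits cover counting error only. Replicate pairs differed by a chi-square of 1.19 to 1.76 per degree of freedom, except for the pairs with miR-10b dox replicate 2, which gave 2.80 and 3.56, so results that rest on this sample are also given without it. The labels were met by the induced microRNA genes: MIR10A was at 724 ± 10.8 CPM (SD, n = 3) in miR-10a dox and at 0.999 ± 0.363 CPM in miR-10a control, and MIR10B was at 2619 ± 67.5 CPM in miR-10b dox and at 3.55 ± 0.807 CPM in miR-10b control. Neural progenitor markers (7 genes) summed to 6205 to 7147 CPM and ventral midbrain markers (8 genes, 1 of them at 0 in all samples) to 700 to 819 CPM. The 5 mesoderm and endoderm markers summed to at most 0.556 CPM and the 2 neural crest markers to at most 1.28 CPM. The 6 neuron markers summed to 551 to 620 CPM. Most of the neural progenitor sum was NES, most of the ventral midbrain sum SHH and most of the neuron sum INA. The seed by which miR-10a selects its targets, bases 2 to 8 of the mature strand, is shown in capitals because the members were searched for it, and the same 7 letters occur in the RefSeq hairpin of miR-10b.
hsa-miR-10a-5p: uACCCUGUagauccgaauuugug

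How well a member was measured followed the number of transcripts listed for it. PHGDH, PSPH and MTHFD1 had 1 listed transcript each and had 4073 to 5976, 711 to 958 and 2548 to 3862 counts per sample. The 6 other members had 2 to 9 listed transcripts, and the highest of these, PSAT1, reached 56 to 128 counts. SHMT1 with 3 and SHMT2 with 9 listed transcripts were at 0 in all 12 samples, ALDH1L2 with 2 had 2 reads in all samples together, and MTHFD2 with 2 had 1 to 10. MTHFD1L with 4 had 6 to 21 counts on its best transcript, NM_001242769. That form has 1065 bases, while the others listed have 3161 to 3477. The same was seen over all genes: those with 1 listed transcript made up 16209 of the 25718 genes and held 92.8% of the counts, and 50.7% of them had a mean above 10 counts, against 40.7% of genes with 2 and 28.6% of genes with 3 or more. A 0 or a low count of SHMT1, SHMT2, MTHFD2, ALDH1L2, PSAT1 or MTHFD1L therefore does not measure low expression. In all, 5 of the 9 members had a mean above 10 counts and were tested.

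**Figure D1:**
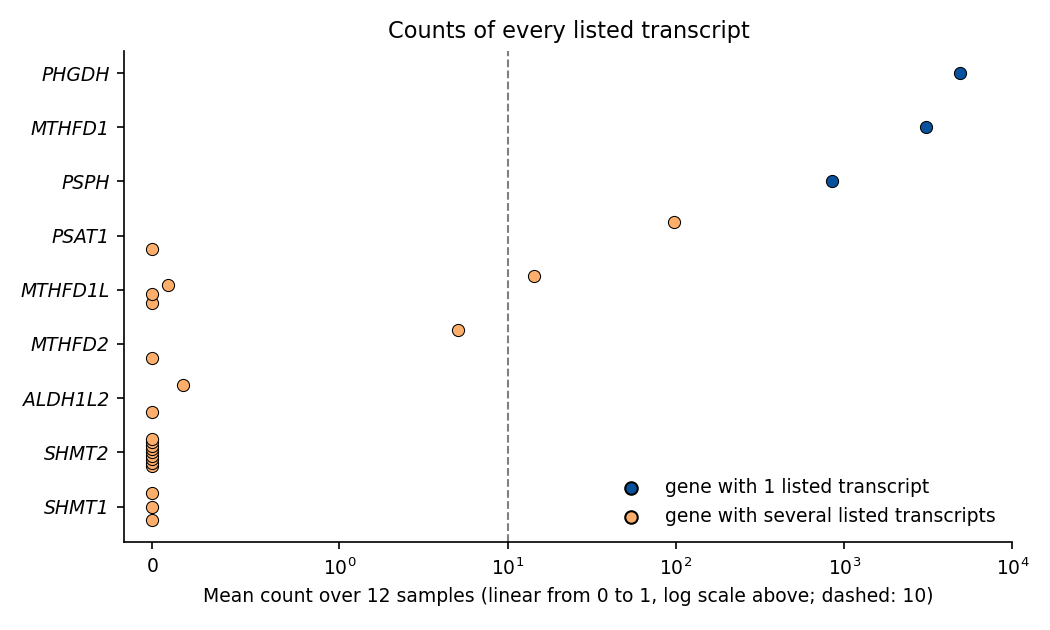
Mean count over the 12 samples (horizontal axis, linear from 0 to 1 and logarithmic above) of each transcript listed for the 9 genes, with genes of 1 listed transcript in blue and genes of several in orange. The 3 blue points lie to the right of every orange point, and the dashed line marks the mean of 10 counts needed for a test.

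PSAT1 shows where the listed forms of such a gene can differ. Its 2 listed transcripts are NM_058179 (2256 bases) and NM_021154 (2118 bases), and the shorter one was at 0 in all samples. The difference of 138 bases equals the length of exon 8 of 9 of the longer form in GENCODE, which lies inside the coding sequence at chr9:80942967-80943104 (GRCh37, plus strand) and is skipped in the other annotated transcript. This exon, given here because it is where the annotated forms differ, has the sequence below.
PSAT1 exon 8: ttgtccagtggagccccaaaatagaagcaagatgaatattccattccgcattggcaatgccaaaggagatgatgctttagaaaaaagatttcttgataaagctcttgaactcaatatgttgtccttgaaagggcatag
In MTHFD2 the counted form NR_027405 is likewise longer than NM_006636, by 98 bases, which is the length of an annotated exon at chr2:74428509-74428606 (GRCh37), and NM_006636 was at 0. The exons were matched by length only, and where the counted reads lie was not tested. Of the 50-base stretches of the canonical PSAT1 transcript, 12.1% also occur elsewhere in the genome. The counts of PSAT1 and MTHFD2 thus compare samples for 1 form of each gene and are no measure of the level of the gene.

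Per transcript length (RPKM, the CPM divided by the transcript length in kilobases), PHGDH had the highest level of the 3 well-measured enzymes in every group, MTHFD1 the next and PSPH the lowest. In miR-10a control the levels were 213 ± 4.09 RPKM for PHGDH, 79.8 ± 0.666 for MTHFD1 and 32.6 ± 0.705 for PSPH (SD, n = 3), and the ranges of the 3 genes did not overlap in any group. Of all genes in the files, 98.1% had a mean count at or below that of PHGDH. This rank is by count without regard to length, and it includes genes with several listed transcripts, whose counts can be too low. PHGDH lies at chr1:120191034-120286841 (GRCh37, plus strand), MTHFD1 at chr14:64854749-64930175 (plus strand) and PSPH at chr7:56078744-56119297 (minus strand). No 50-base stretch of the canonical PHGDH transcript occurs elsewhere in the genome. For PSPH, 15.2% of such stretches do, and for MTHFD1 6.57%, so reads from there could not be placed with certainty. Exons of ZBTB25 on the opposite strand cover 5.64% of the exon bases of MTHFD1, and reads of the overlap cannot be assigned where counting did not use strand, which is not given in the sources used here.

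The first question was whether the enzymes changed when miR-10b was induced. PHGDH was at 375, 374 and 391 CPM in the miR-10b controls and at 356, 350 and 339 CPM in miR-10b dox, so every dox sample was below every control. It fell by 8.35% (log2 fold change -0.13, SE 0.03, 95% interval -0.19 to -0.06, adjusted p = 0.0057 by the quasi-likelihood test of edgeR, p adjusted over 11451 genes after Benjamini and Hochberg). The means were 380 ± 9.53 and 349 ± 9.04 CPM (SD, n = 3 each). Without miR-10b dox replicate 2 the log2 fold change was -0.13 (adjusted p = 0.00369), and without miR-10b control replicate 3 it was -0.10 and no longer passed (adjusted p = 0.053).

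MTHFD1, the trifunctional cytosolic enzyme that carries folate-bound carbon between its oxidation states, was at 234, 241 and 235 CPM in the miR-10b controls and at 231, 221 and 212 CPM in miR-10b dox. The groups did not overlap, and the log2 fold change of -0.10 (SE 0.04, 95% interval -0.17 to -0.02) missed the threshold (adjusted p = 0.0644, edgeR). It passed with TMM scaling (-0.11, adjusted p = 0.0287), with DESeq2 (-0.12, adjusted p = 0.0236) and without miR-10b dox replicate 1 (-0.13, adjusted p = 0.0253). PSPH was at 72.8, 68.0 and 69.9 CPM in the controls and at 67.1, 61.0 and 65.4 CPM in dox, again without overlap. Its log2 fold change was -0.12 (SE 0.05, 95% interval -0.22 to -0.02, adjusted p = 0.103, edgeR), and -0.08 without miR-10b dox replicate 2, whose PSPH level was the lowest of all 12 samples.

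The form of PSAT1 that was counted ranged from 6.22 to 8.94 CPM in the controls and from 4.80 to 7.82 CPM in dox, and the groups overlapped (log2 fold change -0.17, SE 0.16, adjusted p = 0.532, edgeR). The gene MTHFD1L encodes a mitochondrial formyltetrahydrofolate synthetase. Its counted short form had 18, 21 and 13 counts in the controls and 14, 8 and 6 in dox. Its log2 fold change of -0.74 had an interval from -1.40 to -0.07 (adjusted p = 0.132, edgeR), and without miR-10b dox replicate 1 it was -1.15 and passed (adjusted p = 0.0435). All 5 tested members thus had values below 0 with the miR-10b vector, 1 of the 5 passed the test, 4 had an unadjusted p under 0.05, and their median log2 fold change was -0.13 against 0.02 over all tested genes. Among all tested genes 8.18% were called higher and 7.15% lower in this comparison, and groups without overlap were found for 16.3% (higher) and 12.3% (lower). An unadjusted p under 0.05 in the edgeR fit was common here, with 3161 of the 11451 tested genes. Of the 5 members, 3 had dox samples below all controls. The split of called genes depended on the scaling: 937 higher and 819 lower with total counts, and 498 and 808 with DESeq2.

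Cell type markers also differed between miR-10b dox and its controls. The neural progenitor markers summed to 7045 to 7147 CPM in the controls and 6468 to 6828 CPM in dox. Of the 6 tested, 3 were lower and 1 higher in dox. SOX3 (log2 fold change -0.40, adjusted p = 3.11e-07, edgeR), NES (-0.14, adjusted p = 0.000338) and HES5 (-0.16, adjusted p = 0.033) were lower, and MSI1 (0.10, adjusted p = 0.0297) was higher. SOX3 and NES kept their calls with each sample left out. HES5 lost its call without miR-10b dox replicate 1 or 3 or any of the miR-10b controls (-0.18 to -0.15, adjusted p = 0.0546 to 0.0998), and MSI1 with TMM (adjusted p = 0.076), with DESeq2 (adjusted p = 0.0964), with the 6 samples fitted alone (adjusted p = 0.0804) and without miR-10b dox replicate 3 or miR-10b control replicate 2 or 3 (0.07 to 0.10, adjusted p = 0.0856 to 0.206). The neuron markers summed to 553 to 579 CPM and 594 to 620 CPM, and of the 3 tested INA rose by 0.09 (adjusted p = 0.037), a call lost with TMM (adjusted p = 0.0961), with DESeq2 (adjusted p = 0.107), without a filter (adjusted p = 0.052), with the 6 samples fitted alone (adjusted p = 0.101) and without miR-10b dox replicate 1 or 2 or miR-10b control replicate 2 or 3 (0.07 to 0.10, adjusted p = 0.0627 to 0.199). The ventral midbrain markers summed to 803 to 819 CPM and 749 to 799 CPM. Of the 6 tested 2 were lower, CORIN (-0.77, adjusted p = 6.28e-08) and WNT1 (-0.65, adjusted p = 1.1e-09). LMX1A (0.27, adjusted p = 0.22), FOXA2 (0.21, adjusted p = 0.246) and EN1 (0.05, adjusted p = 0.522) had values above 0. SHH was at -0.06 (adjusted p = 0.226), and none of these passed. WNT1 was also lower with miR-10a (-0.45, adjusted p = 3.22e-05). The fibroblast markers summed to 118 to 139 CPM and 84.0 to 102 CPM, and of the 3 tested COL1A1 was lower (-0.60, adjusted p = 9.98e-09). The proliferation markers, 1 of 6 at 0 in all samples, summed to 2634 to 2832 CPM and 2456 to 2689 CPM. Of the 4 tested CDK1 was lower (-0.34, adjusted p = 0.00453), and without miR-10b dox replicate 2 it was at -0.21 (adjusted p = 0.0664). Most of each sum came from 1 gene. On average in control and dox these were NES (5160 and 4696 CPM), INA (554 and 591), SHH (626 and 601), COL1A1 (102 and 67.4) and TOP2A (2087 and 2014). The part of the cell type markers in the values of the enzymes was not tested. In bulk RNA fewer cells of a type and less RNA per cell cannot be told apart.

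**Figure D2:**
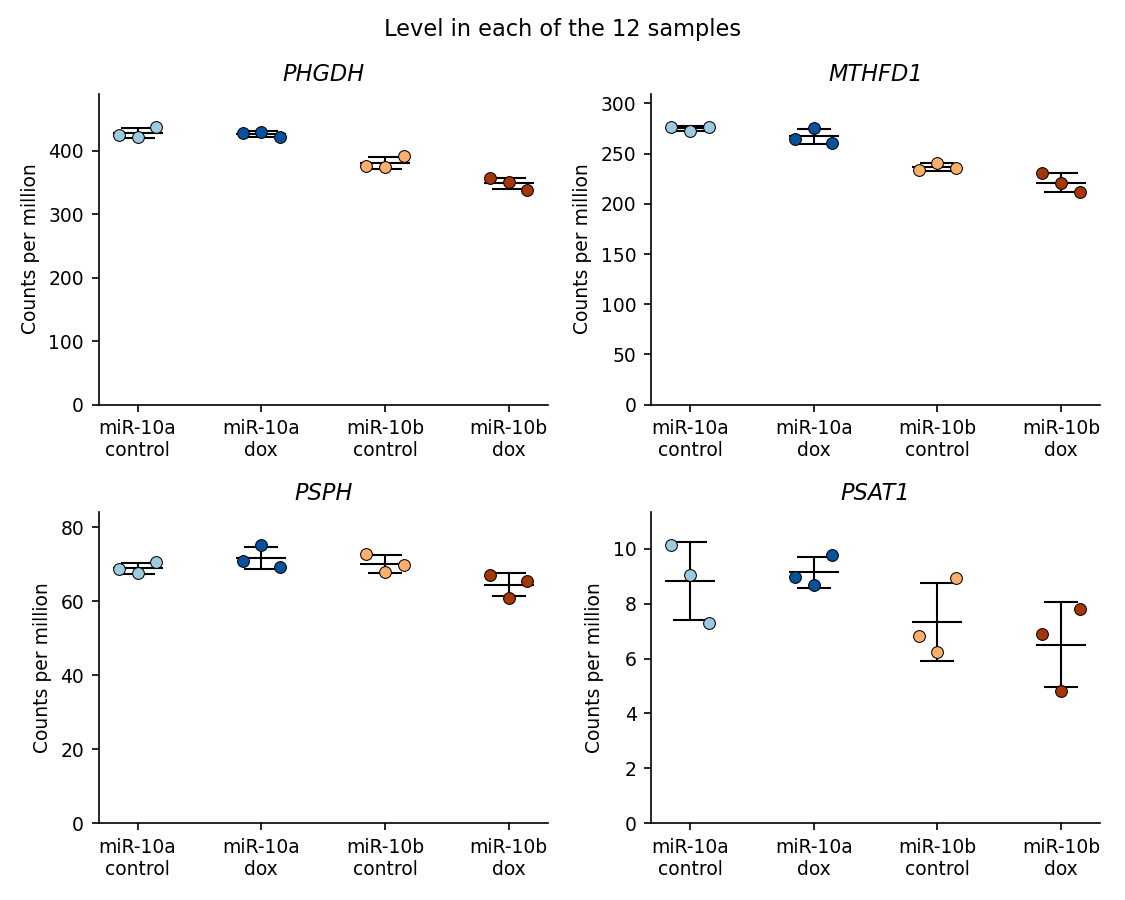
Level of PHGDH, MTHFD1, PSPH and PSAT1 in CPM (vertical axes from 0) in each of the 12 samples (points), with the mean and SD of each group of 3 (bars). The miR-10b dox samples of PHGDH, 339 to 356 CPM, lie below the miR-10b controls and below all miR-10a samples, while the PSAT1 groups overlap.

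With miR-10a induced, the same enzymes did not pass the test. PHGDH was at 425, 422 and 438 CPM in the miR-10a controls and at 427, 430 and 421 CPM in miR-10a dox, and the groups overlapped. The log2 fold change was -0.01 (SE 0.03), with an interval of -0.07 to 0.06 that leaves out a fall of the size seen with miR-10b (adjusted p = 0.968, edgeR). MTHFD1 was at 277, 273 and 277 CPM in the controls and at 265, 276 and 261 CPM in dox (log2 fold change -0.04, SE 0.04, adjusted p = 0.724, edgeR). PSPH was at 68.8, 67.6 and 70.6 CPM in the controls and at 71.0, 75.2 and 69.3 CPM in dox, a log2 difference of 0.06 (SE 0.05, adjusted p = 0.721, edgeR). PSAT1 (0.05, SE 0.14) and MTHFD1L (-0.06, SE 0.30) were within their errors of 0. Of the 5 members 0 were called in this comparison by edgeR and 0 by DESeq2, and 0 had an unadjusted p under 0.05, beside 0.472% of all tested genes called higher and 0.742% lower. Groups without overlap were found for 0 of the 5 members, and for 10.5% (higher) and 7.75% (lower) of all tested genes. With DESeq2, 35 genes were called higher and 90 lower, against 54 and 85 with total counts.

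Whether the enzymes responded differently to the 2 vectors was tested as the difference between both doxycycline effects. It was -0.12 for PHGDH (SE 0.05, 95% interval -0.21 to -0.03, adjusted p = 0.205, edgeR) and -0.18 for PSPH (SE 0.07, 95% interval -0.32 to -0.04, adjusted p = 0.221). MTHFD1 had a difference of -0.05 (SE 0.05, adjusted p = 0.708). PHGDH and PSPH had unadjusted p of 0.013 and 0.015 in the edgeR fit, and 0 of the 5 members passed after adjustment in edgeR or DESeq2. The fall of PHGDH with miR-10b is therefore not shown to differ from its value with miR-10a. For this difference 0.576% of all tested genes were called higher and 1.38% lower, 66 and 158 genes with total counts and 23 and 150 with DESeq2. An unadjusted p under 0.05 in the edgeR fit was found for 1510 of the 11451 tested genes.

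Averaged over both vectors, PHGDH fell by 0.07 on the log2 scale (SE 0.02, adjusted p = 0.0457, edgeR), and MTHFD1 was at -0.07 (SE 0.03, adjusted p = 0.0613). Both lie close to the threshold: PHGDH lost its call when any of 8 of the 12 samples was left out (adjusted p = 0.0569 to 0.134, all miR-10a samples except control replicate 2, and miR-10b dox replicate 3 and control replicates 2 and 3), while MTHFD1 passed without miR-10a dox replicate 2, miR-10b dox replicate 1 or miR-10b dox replicate 2 (adjusted p = 0.027 to 0.0486). In this average 7.67% of all tested genes were called higher and 6.22% lower. With TMM scaling 665 genes were called higher and 852 lower, and with DESeq2 459 and 740, in place of 878 and 712.

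**Figure D3:**
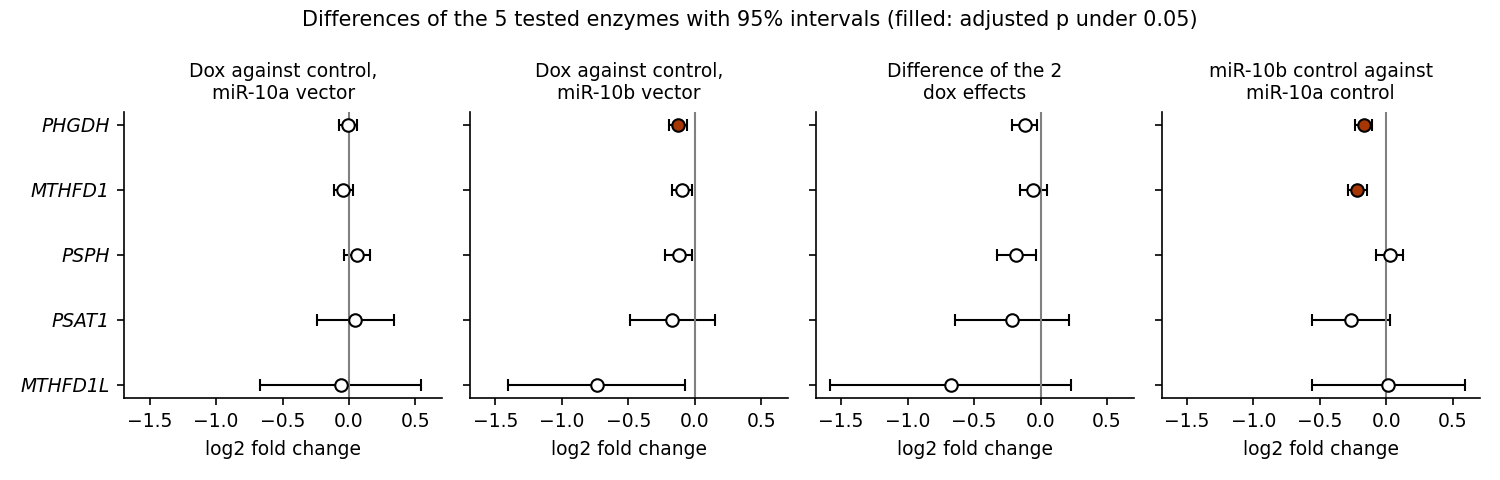
Log2 fold change (horizontal axes) of the 5 tested enzymes in 4 comparisons, with 95% intervals from the fit. Filled points passed an adjusted p of 0.05: PHGDH in the miR-10b comparison (-0.13), and PHGDH (-0.17) and MTHFD1 (-0.22) between the uninduced cultures.

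Of these comparisons, the largest differences of PHGDH and MTHFD1 were between the cultures that received no doxycycline. PHGDH was at 422 to 438 CPM in the miR-10a controls and at 374 to 391 CPM in the miR-10b controls, without overlap, and the level was lower with the miR-10b vector by a log2 fold change of -0.17 (SE 0.03, adjusted p = 0.000128, edgeR). MTHFD1 was at 273 to 277 CPM and at 234 to 241 CPM, also without overlap, with a log2 fold change of -0.22 (SE 0.04, adjusted p = 1.28e-05). Both kept their call in all 14 alternatives, the 6 that leave out a sample included. PSPH (0.02, SE 0.05, adjusted p = 0.821), PSAT1 (-0.27, SE 0.14, adjusted p = 0.257) and MTHFD1L (0.02, SE 0.28, adjusted p = 0.982) did not pass. The background was 7.41% of all tested genes called higher and 6.72% lower, and 14.2% (higher) and 15.9% (lower) without overlap, and 2 of the 5 members were called lower and 2 lay without overlap. Between the uninduced cultures 2859 of the 11451 tested genes had an unadjusted p under 0.05 in the edgeR fit.

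The 2 uninduced lines were separate transductions, so vector and culture cannot be told apart. This comparison and the miR-10b doxycycline effect share the miR-10b controls. Cell type markers also differed between the uninduced lines. The neural progenitor markers summed to 6510 to 6560 CPM in miR-10a control and 7045 to 7147 CPM in miR-10b control, and of the 6 tested 2 were higher and 2 lower with miR-10b. SOX2 (0.13, adjusted p = 0.00169, edgeR) and NES (0.17, adjusted p = 1.12e-05) were higher, and SOX1 (-1.23, adjusted p = 1.45e-17) and SOX3 (-0.76, adjusted p = 1.01e-15) were lower. The ventral midbrain markers summed to 706 to 718 and 803 to 819 CPM, with 3 of the 6 tested called higher, and the 5 fibroblast markers summed to 61.1 to 63.0 CPM and 118 to 139 CPM. Of those 5, all had a count in some sample, 3 were tested and 2 were called higher. These were COL1A1 (1.16, adjusted p = 4.32e-16, edgeR) and LUM (1.07, adjusted p = 1.13e-11), while COL1A2 was at -0.22 (adjusted p = 0.495). The 6 pluripotency markers, 1 of them at 0 in all samples, summed to 140 to 149 and 105 to 111 CPM. Nearly all of this sum was DPPA4, at 146 and 108 CPM on average and the only 1 tested (-0.43, adjusted p = 1.15e-09, edgeR). UTF1, the next highest, averaged 0.157 and 0.177 CPM. POU5F1, NANOG and TDGF1 have several listed transcripts, so their low counts do not measure low expression. The proliferation markers summed to 2495 to 2632 and 2634 to 2832 CPM, and of the 4 tested 0 were called by edgeR or DESeq2 and 2 had an unadjusted p under 0.05. The stem cells of both lines had been grown on mouse embryonic fibroblasts before differentiation, and a part of these feeder cells in the counts was not tested. Most of each other sum also came from 1 gene. On average in miR-10a and miR-10b control these were NES (4595 and 5160 CPM), SHH (560 and 626), COL1A1 (45.6 and 102) and TOP2A (1969 and 2087). The part of the cell type markers in the difference of the 2 enzymes was not tested.

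PHGDH and MTHFD1 had the most similar levels over the 12 samples of any pair of the 5 tested enzymes. Because the miR-10a and miR-10b samples form separate clusters, the relation was taken within each vector. Over the 6 miR-10b samples Pearson's r was 0.85 (exact permutation p = 0.0278, two-sided, adjusted p = 0.0556 over both vectors) and Spearman's rho 0.83 (exact permutation p = 0.0583, adjusted 0.117), and over the 6 miR-10a samples r was 0.54 (exact permutation p = 0.219) and rho 0.54 (exact permutation p = 0.297). Without the 2 samples farthest from the median of PHGDH, r was 0.86 with miR-10b and -0.02 with miR-10a, where the relation thus rested on those samples. With the mean of each group removed, r was 0.53 and 0.56. These are 2 relations, each over samples that share the total count by which both genes were scaled. The pair was picked as the most alike over these same 12 samples, and the p-values do not account for that choice. The permutation also exchanges control and dox samples, so it cannot separate a relation within groups from a shared difference between them.

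**Figure D4:**
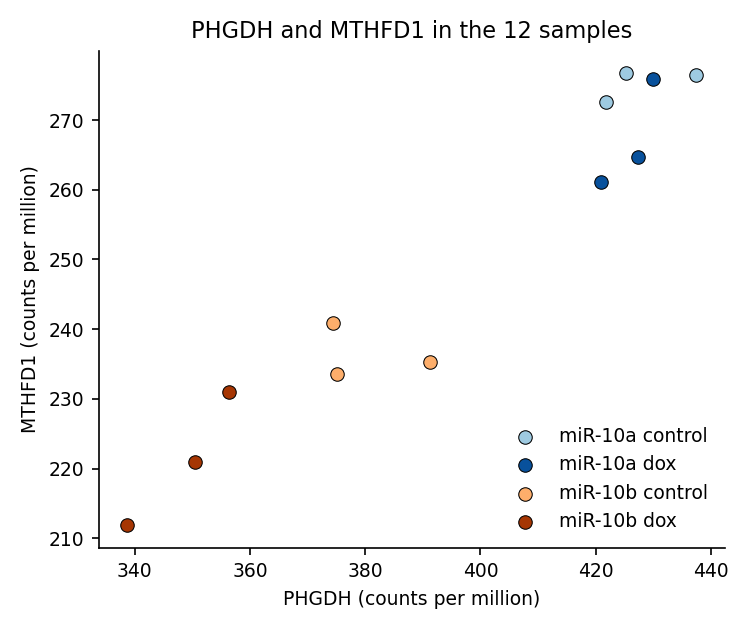
PHGDH (horizontal axis) against MTHFD1 (vertical axis), both in CPM on axes that do not start at 0, in the 12 samples coloured by group. The 6 miR-10a samples lie at 421 to 438 CPM of PHGDH, apart from the 6 miR-10b samples at 339 to 391 CPM.

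The promoter windows of this pair, 300 bases around the start in RefSeq (GRCh38.p14), are given because both genes were the best measured and the most alike. Capitals mark CCAAT (or its reverse complement ATTGG) and the E-box CACGTG, which were picked for display after the sequences had been seen. PHGDH is at chr1:119711684-119711983 and MTHFD1 at chr14:64388103-64388402, both on the plus strand.
PHGDH promoter: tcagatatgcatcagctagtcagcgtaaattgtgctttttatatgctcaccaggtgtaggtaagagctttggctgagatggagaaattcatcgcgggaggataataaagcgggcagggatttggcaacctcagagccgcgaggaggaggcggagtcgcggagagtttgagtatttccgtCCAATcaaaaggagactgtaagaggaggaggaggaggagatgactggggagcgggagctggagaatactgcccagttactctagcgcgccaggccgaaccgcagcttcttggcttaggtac
MTHFD1 promoter: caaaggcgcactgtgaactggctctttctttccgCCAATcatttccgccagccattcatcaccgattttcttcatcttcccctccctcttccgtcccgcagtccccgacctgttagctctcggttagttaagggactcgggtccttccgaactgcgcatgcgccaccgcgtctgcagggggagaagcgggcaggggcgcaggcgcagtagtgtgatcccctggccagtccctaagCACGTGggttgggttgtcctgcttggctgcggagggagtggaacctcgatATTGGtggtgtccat
Both windows hold CCAAT, which 34.6% of 35116 windows of this length hold on either strand, and MTHFD1 also holds CACGTG, found in 7.26%. Among the 7952 tested genes with a window, the shares were 36.9% for CCAAT and 10.2% for CACGTG. TGATGNAA, the core bound by C/EBP and ATF factors such as ATF4, occurs in 3.62% of all windows, in those of 1.56% of the tested genes and in neither of these. Windows were given for 6 of the 9 members, and of these only MTHFD1L holds TGATGNAA, in 3 of its 4 overlapping or alternative windows. A match is a description of letters and not of binding.

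The letters that pair with the miR-10 seed, ACAGGGT (with the 8mer ACAGGGTA) and CAGGGTA, were searched in the longest annotated 3′ untranslated region of each member (GENCODE on GRCh37, 353 to 4634 bases). They occur in 0 of the 9 members, PHGDH with 353 bases and MTHFD1 with 3522 bases included, and in 21.1% of the 9258 tested genes with such a region. This says only that these letters are not in these windows.

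The 5 genes whose profile over the 12 samples was most like the mean profile of the tested members were NUP205, a nuclear pore subunit (r = 0.97), MAL2, a membrane traffic protein (r = 0.96), MCM5, a subunit of the replicative helicase (r = 0.96), SFRP1, a secreted Wnt modulator (r = 0.96), and TIMELESS, a replication fork factor (r = 0.96). These are Pearson's r of log2(CPM + 0.5) over 12 samples of 4 groups. They were picked as the highest over all tested genes. Such an r cannot separate a difference between the vectors from a relation within them. The mean profile weighs PSAT1 and MTHFD1L, with low counts on 1 form each, like the other members.

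Genes that supply or use the same carbon units were described from 7 lists. Of all 11451 tested genes, 1278 had an unadjusted p under 0.05 in the edgeR fit with miR-10a induced and 3161 with miR-10b induced. Of the 13 genes of folate uptake and folate forms, 4 were tested, and with miR-10a induced 0 were called by edgeR or DESeq2 and 1 had an unadjusted p under 0.05. With miR-10b induced GGH, the hydrolase that shortens folate polyglutamates, fell from 125 ± 7.83 to 99.5 ± 12.7 CPM (log2 fold change -0.33, SE 0.06, adjusted p = 4.68e-05, edgeR), and the value was -0.24 without miR-10b dox replicate 2 (adjusted p = 0.000216). GGH was also higher in the uninduced miR-10b than miR-10a cultures (log2 fold change 0.28, adjusted p = 0.000269).

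Of the 7 genes of nucleotide synthesis with folate carbon, all were tested and 2 fell with miR-10b. With miR-10a 0 were called by edgeR or DESeq2 and 1 had an unadjusted p under 0.05. All 7 values were below 0 with miR-10a, with a median of -0.04 against 0.01 over all tested genes. GART, a trifunctional purine synthesis enzyme, fell from 27.2 ± 1.02 to 20.0 ± 0.997 CPM (log2 fold change -0.45, SE 0.08, adjusted p = 4.74e-05, edgeR). It has 4 listed transcripts, so 1 form was counted. TYMS, thymidylate synthase, fell from 182 ± 3.59 to 165 ± 3.35 CPM (-0.14, SE 0.04, adjusted p = 0.00957) and lost its call without miR-10b control replicate 2 (-0.13, adjusted p = 0.053). With miR-10b the median log2 fold change of the list was -0.10 against 0.02 over all tested genes. Between the uninduced cultures 3 were lower with miR-10b, ATIC (-0.20, adjusted p = 4.73e-05, edgeR), PPAT (-0.23, adjusted p = 4.54e-05) and PFAS (-0.18, adjusted p = 3.24e-05), beside 6.72% of all tested genes. They are enzymes of purine synthesis, as are most genes of this list. The median of the 7 was -0.18 against -0.01 over all tested genes.

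Of the 13 genes of serine transport and use, 12 were tested, and with miR-10b 1 rose and 1 fell, while with miR-10a 0 were called by either tool and 2 had an unadjusted p under 0.05. SLC38A2, a carrier of small neutral amino acids, serine among them, fell from 531 ± 19.8 to 389 ± 42 CPM (log2 fold change -0.45, SE 0.05, adjusted p = 6.74e-09, edgeR), and the value was -0.36 without miR-10b dox replicate 2 (adjusted p = 3.34e-11). SDSL, a serine dehydratase-like enzyme, rose from 28.2 ± 2.91 to 35.5 ± 1.43 CPM (0.33, SE 0.08, adjusted p = 0.0019). Between the uninduced cultures SLC1A5, a glutamine and serine exchanger, was lower with miR-10b (-0.39, adjusted p = 3.94e-08), as was SDSL (-0.29, adjusted p = 0.00715), which lost that call without miR-10a control replicate 1 (-0.23, adjusted p = 0.0763) or miR-10b control replicate 3 (-0.21, adjusted p = 0.0979). The median of the 12 was -0.04 with miR-10b and 0.02 with miR-10a.

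Of the 4 genes of glycine cleavage 2 were tested. With doxycycline 0 passed in edgeR or DESeq2, and both had an unadjusted p under 0.05 with miR-10b. GLDC, the decarboxylase of the complex, was lower in the uninduced miR-10b cultures (225 ± 10.3 against 271 ± 3.52 CPM, log2 fold change -0.26, adjusted p = 4.3e-07, edgeR). Of the 10 genes of the methionine cycle and transsulfuration 4 were tested, and 0 were called by edgeR or DESeq2 or had an unadjusted p under 0.05 in the 5 comparisons, MAT2A at 664 to 709 CPM on average in the 4 groups included. Of the 15 genes of the ATF4 pathway, the stress response that is known to switch on serine synthesis genes, 7 were tested. With either vector 0 passed in edgeR or DESeq2, and 1 (miR-10a) and 2 (miR-10b) had an unadjusted p under 0.05. In the average PPP1R15A rose by 0.10 (adjusted p = 0.0368, edgeR), a call lost with TMM (adjusted p = 0.0715), with DESeq2 (adjusted p = 0.123) and without any of 8 samples (log2 fold change 0.07 to 0.11, adjusted p = 0.0524 to 0.13). Those are all miR-10a samples except dox replicate 3, and miR-10b dox replicate 2 and control replicates 2 and 3. ATF4 itself, on 1 of its 2 listed transcripts, had a log2 fold change of 0.26 (SE 0.13, adjusted p = 0.16) with miR-10b. With miR-10a it was 0.11 (SE 0.12, adjusted p = 0.813). The median of the list was 0.01 with miR-10b and 0.03 with miR-10a. Of 7 genes of mitochondrial stress, 6 were tested and 0 passed in a doxycycline comparison by edgeR, while DESeq2 called 1, HSPA9, with miR-10b and 3 had an unadjusted p under 0.05 there. HSPE1, a mitochondrial chaperonin subunit, was at -0.13 (SE 0.05, adjusted p = 0.0709) with miR-10b. Genes called only between the uninduced cultures, and HSPE1, MAT2A and the cell type markers, were picked for mention after their values had been seen.

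Between the uninduced cultures 3 further list genes passed. ATF4 was lower with miR-10b (-0.37, adjusted p = 0.0344, edgeR) and lost its call without miR-10a control replicates 2 or 3 or miR-10b control replicates 1 or 2 (-0.35 to -0.25, adjusted p = 0.108 to 0.248). PPP1R15A was higher (0.15, adjusted p = 0.0287) and lost it without replicate 1 or 2 of either control (0.12 to 0.15, adjusted p = 0.0784 to 0.16). HSPA9, the mitochondrial HSP70, was lower (-0.09, adjusted p = 0.0466) and lost it without miR-10a control replicates 1 or 3 or miR-10b control replicates 1 or 2 (-0.09 to -0.06, adjusted p = 0.109 to 0.278).

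**Figure D5:**
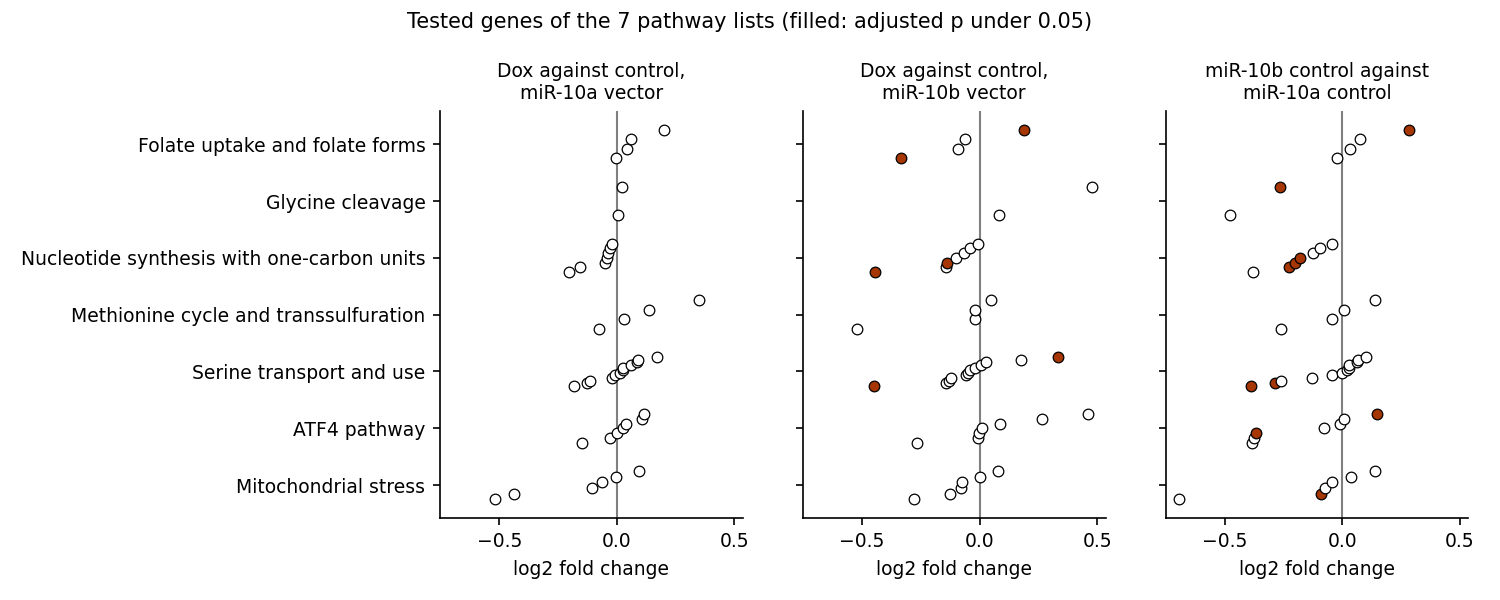
Log2 fold change (horizontal axes) of each tested gene of the 7 lists (rows) in 3 comparisons, with filled points for an adjusted p under 0.05. No point is filled with the miR-10a vector, 6 are filled with the miR-10b vector and 10 between the uninduced cultures.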

How the data were processed

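RNA was measured by sequencing in 12 samples of 4 groups of 3, grouped by the vector and the doxycycline treatment in their labels. The authors made 50-base single-end reads and mapped them to hg19. They deposited raw counts per RefSeq transcript, 1 file per sample, and the processing notes of the submitters name STAR, featureCounts and Subread without versions. Each file held 51799 rows for 48101 transcripts, and 3698 repeated rows with the same counts were dropped. A gene with more than 1 transcript was represented by its most counted one on average, and reads shared by transcripts appear not to have been counted, so such genes are measured in part. The labels and the methods of the study name different RNA and library kits, and strand use is not given in the sources used here.

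The test of the counts was the quasi-likelihood test of edgeR 4.0.16 (R 4.3.3, 4 group means in one fit, total count as library size, genes with a mean above 10 counts, Benjamini-Hochberg adjustment, threshold 0.05). Single genes were also compared by the exact two-sided permutation test, which with 3 against 3 samples cannot go below p = 0.1. The code was tested on simulated data first. Alternatives were TMM scaling, DESeq2 1.42.0, no filter, a mean above 50 counts, a replicate block, counts summed over transcripts, counts thinned to equal totals, only the 6 samples compared, and each sample left out in turn. Intervals are 95% intervals of the fit. Other steps used Python 3.11.15, pandas 2.3.3, numpy 2.4.6 and scipy 1.17.1. Gene positions come from GENCODE 44 lifted to GRCh37, and promoter and microRNA sequences from RefSeq (GRCh38.p14).

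The 9 members and all lists were chosen with earlier results of these data known. Named genes are the 9 members, the list genes past the threshold in a doxycycline comparison (up to 6 per list), the 5 genes most like the members' mean profile, and MIR10A and MIR10B. The result of 1 list gene is not reported here.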

Additional observations from a re-analysis of the deposited data

Results flagged for a closer look

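Among the list and marker genes, 4 had doxycycline effects that differed between the vectors by the test of the difference itself. For SLC38A2 it was -0.32 on the log2 scale (SE 0.07, adjusted p = 0.00413, edgeR), from means of 521 and 477 CPM with miR-10a and 531 and 389 CPM with miR-10b (control, dox), and with DESeq2 it did not pass (-0.33, adjusted p = 0.0812). For GGH it was -0.33 (SE 0.08, adjusted p = 0.0202, edgeR), and it was -0.28 to -0.32 and did not pass (adjusted p = 0.0521 to 0.106) without miR-10a dox replicate 1 or 3, miR-10a control replicate 2 or miR-10b control replicate 3. Of the marker genes, the difference was -0.65 for COL1A1, a collagen chain (SE 0.10, adjusted p = 9.75e-05, edgeR), and -0.28 for SOX3 (SE 0.07, adjusted p = 0.0173), which did not pass without miR-10a control replicate 3 (-0.26, adjusted p = 0.0616) or miR-10b control replicate 1 (-0.21, adjusted p = 0.0915).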

How the results depend on the processing

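The lower PHGDH and MTHFD1 in the uninduced miR-10b cultures kept their call and direction in all 14 alternatives, and the fall of PHGDH with miR-10b in 13 of 14. With the replicate block it was -0.13 (adjusted p = 0.00566), and no member's call changed under the block. Same-numbered dox and control samples of a vector did not deviate together over all tested genes (r of -0.03 to 0.01). A link limited to few genes, or between the vectors, was not tested. The members called numbered 2 in place of 1 with TMM and with DESeq2 for miR-10b, and in the average 2 with TMM, 2 with DESeq2, 2 at a mean above 50 counts and 0 without a filter. Genes called in the miR-10a comparison were 275 in place of 139 when the 6 samples were fitted alone, and for the difference between the vectors 343 in place of 224 without a filter. With 1 sample left out, members called ranged from 0 to 3 (miR-10b) and 0 to 2 (average), and genes called from 75 to 104 (miR-10a) and 140 to 339 (difference). Signs turned only for values that had not passed the test. Between the uninduced cultures PSPH was -0.0085 with thinned counts. With 1 sample left out it ranged from -0.00091 to 0.048 there, and MTHFD1L from -0.12 to 0.19. With miR-10a PHGDH ranged from -0.018 to 0.0088, PSAT1 from -0.066 to 0.15 and MTHFD1L from -0.24 to 0.14. PSAT1 ranged from -0.32 to 0.0050 with miR-10b and from -0.14 to 0.026 in the average. Causes were not tested. PSAT1 and MTHFD1L are limited by low counts on 1 form each, and SHMT1, SHMT2, MTHFD2 and ALDH1L2 could not be compared.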
